A study of Arabidopsis thaliana with 12 samples.

Results

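Pectinesterases, also called pectin methylesterases, take methyl groups off homogalacturonan, the pectin that the Golgi secretes into the plant cell wall in a highly methylated form. Stretches without methyl groups can be bound by calcium, which stiffens the wall, or cut by polygalacturonases and pectate lyases, which loosens it. Many of these enzymes carry an inhibitor-like pro region that is removed before secretion, and separate inhibitor proteins of the same fold bind the finished enzyme. The family is known for its part in cell expansion, root hair growth, organ initiation and the mechanics of stomatal guard cells, and in flowers for pollen tube growth.

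The members described here are all loci of the array whose annotation text contains the word pectinesterase, in any case. This rule found 98 loci of the 32627 measured. It uses the annotation text and no measured value. The text also takes in proteins that are not enzymes. By that text, 66 members were pectinesterases or pectin methylesterases, 11 were named as inhibitors, and 12 were short genes of under 1500 base pairs annotated as both enzyme inhibitor and pectinesterase. Another 4 were pseudogenes, 3 were SKU5-similar proteins, which belong to the multicopper oxidase-like family, and 2 were inhibitors of fructosidase, the enzyme that splits sucrose. These 6 classes were drawn up after the values had been seen. All 98 loci stood in the gene table of assembly TAIR10.1, and 32 of them had a symbol there. A locus code is used where no symbol stood, and for AT4G12390, whose symbol is shared with another member.

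The seedlings were Arabidopsis thaliana Col-0, 10 days old, and RNA came from the whole plant. The 3 genotypes were wild type, gem1, which carries a T-DNA insertion, and GEMoe, in which the viral 35S promoter, active in most tissues, drives GEM. GEM encodes a protein known as a modulator of GLABRA2, a regulator of root hair and trichome fate. Each genotype was left untreated or given abscisic acid (ABA) at 100 uM for 2 hours, and each of the 6 groups had 2 biological replicates on 1 array each. ABA is the hormone that plants make under drought and in maturing seeds. The labels name no mock treatment, and the gem1 and GEMoe plants are given as 1 line each. The comparisons ask how the family's transcripts differ with ABA, with genotype, and in their ABA response between genotypes.

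The values are log2 expression values made by the authors with RMA, so a difference of 1 is 2-fold, and each member's value rests on 4 probes (75 members) or 3 probes (23 members). A level on this scale depends on the probes of a gene, so levels of different genes are given only as ranges. Array medians lay between 12.16 and 12.22. All 5 of the ABA-responsive genes used as a check (LTI65, RAB18, KIN1, CYP707A1 and HAI3) rose with ABA, by 2.34 to 5.25 on the log2 scale. The RNA gave high values for leaf markers (mean of 5 genes 14.56 to 14.95 over the groups and replicates) and root markers (mean of 6 genes 13.59 to 14.58). The 3 flower markers AP3, PI and AG stayed between 7.69 and 8.39, near the bottom of the scale, which began at 6.99. The GEM gene itself had 2 features. Feature 1 gave 14.13 to 14.48 on the 4 wild-type arrays, 14.38 to 14.61 on the 4 arrays labelled gem1 and 15.73 to 15.81 on the 4 GEMoe arrays. Feature 2 gave 9.32 to 9.65 in wild type and 11.16 to 11.62 on the arrays labelled gem1. In GEMoe it gave 11.36 and 11.98 in replicate 1 but 9.56 and 9.38 in replicate 2. Neither feature was lower on the arrays labelled gem1 than in wild type, so GEM does not check that label. The sources used here do not place the insertion against the probes.

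Members spread over the whole scale. Averaged over all 12 arrays, 32 members lay under 9, 33 between 9 and 12, 26 between 12 and 15 and 7 over 15. Of all loci on the array, 17% lay under 9, against 32.7% of the members. The 5 members with the highest means were SKS6, PME3, PME44, AT3G49220 and PME5, at 15.18 to 15.62. This is near the top of the scale, 15.95, and no order is read from it. SKS6 is one of the SKU5-similar proteins, PME3 is known from vascular tissue and root formation, and PME5 from organ initiation at the shoot apex. The 5 with the lowest means were the pseudogene AT1G56490 and the short genes AT1G09370, AT3G05741, AT2G15345 and AT3G27999, at 7.53 to 7.98. Of the 12 short genes 10 lay under 9, and the highest mean of the 12 was 9.66.

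The genes of known pollen function gave the following values, which depend on each gene's probes and are not compared with one another. VGD1 and its relatives VGDH1 and VGDH2, which promote pollen tube growth, lay at 8.85 to 9.41, 9.15 to 10.26 and 9.13 to 10.12 over the 12 arrays. PPME1, a pollen tube pectinesterase, lay at 8.26 to 9.08. The linked genes AT5G07410, AT5G07420 and AT5G07430 lay at 8.84 to 9.60, 8.19 to 8.93 and 7.95 to 8.46. QRT1, which separates the pollen grains of a tetrad, lay at 9.72 to 11.16. PMEI1 and PMEI2, inhibitors studied in pollen tubes, had means of 8.10 and 9.88. AT5G49180, known as PME58 of seed coat mucilage, lay at 8.79 to 9.37. No member of these 3 groups passed in any comparison of ABA or genotype.

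ABA moved a small set of members, each with the same sign in all 3 genotypes. Averaged over genotypes, 4 members rose and 8 fell (limma, Benjamini-Hochberg adjusted p under 0.05 over all loci), which is 12.2% of the 98. Over all 32627 loci the share was 10.8%, with 5.60% rising and 5.20% falling, so in this fit the share of the members was near that of the array. In the fit with a replicate block it was below that of the array, at 15 members, or 15.3%, against 22.2% of all loci. At an unadjusted p under 0.05 the members also had the lower share, 17.3% against 22.4% without the block and 24.5% against 32.8% with it. Whether these shares differ was not tested. The median difference of the members was -0.05, and that of all loci -0.03. Differences over 1 on the log2 scale were found for 9.18% of the members and 3.96% of all loci.

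**Figure D1:**
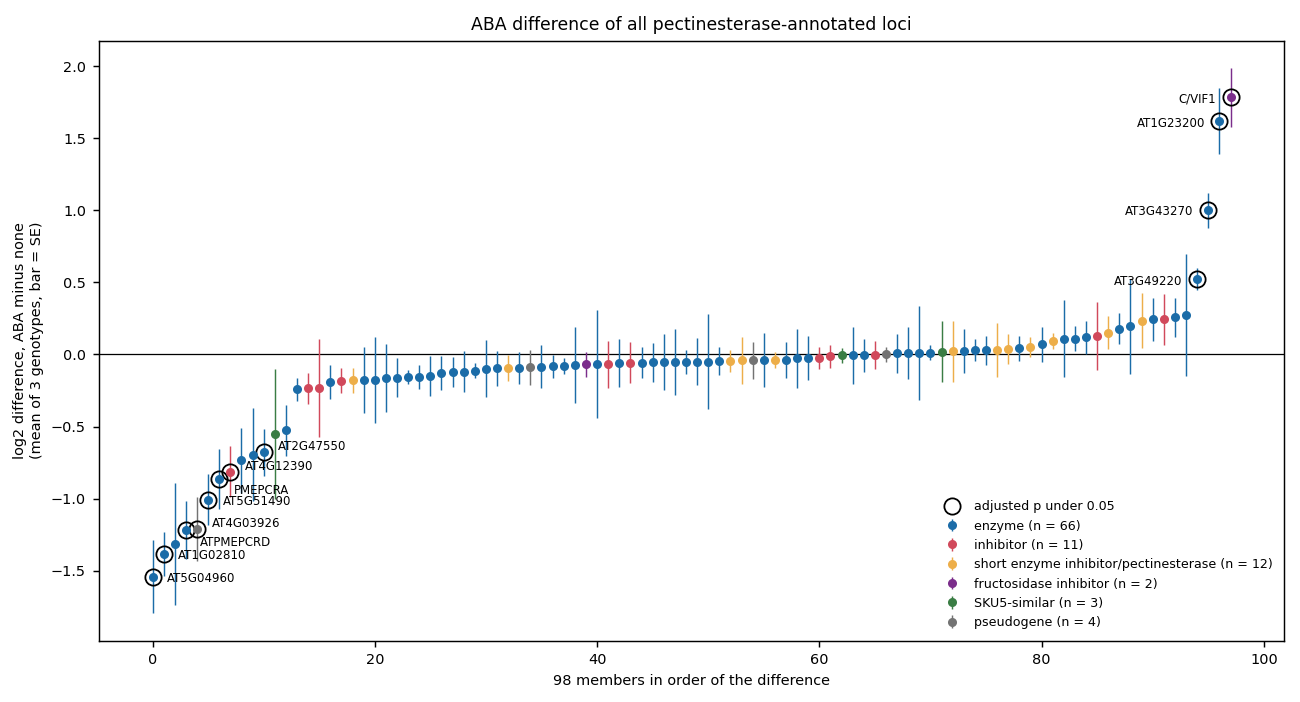
Log2 difference of ABA minus untreated for each of the 98 members, averaged over the 3 genotypes and placed in rising order, with bars of 1 SE. Colours give the annotation class, and rings mark the 4 members that rose and the 8 that fell, from -1.54 for AT5G04960 to 1.78 for C/VIF1.

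By class, 3 enzymes rose and 6 fell of 66, 1 of 11 inhibitors fell, 1 of 4 pseudogenes fell and 1 of 2 fructosidase inhibitors rose. Split by wording alone, 1 rose and 3 fell of the 32 members whose text holds the word inhibitor, and 3 rose and 5 fell of the other 66. None of the 12 short genes and none of the 3 SKU5-similar proteins passed. All 12 members lay above 9 in the mean: 3 of the 33 between 9 and 12, 7 of the 26 between 12 and 15, and 2 of the 7 over 15. The shares of all loci at these levels are not given here. The untreated and the ABA-treated arrays did not overlap for 14 members, 4 higher and 10 lower with ABA. That was 14.3% of the members, against 12.1% of all loci. The 14 were the 12 that passed plus PME3 and AT3G27980.

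The member that rose most was C/VIF1 (AT1G47960, chromosome 1, 17681157 to 17683629, reverse strand, in the coordinates of the array's annotation, for which the sources used here name no genome build). It is not a pectinesterase but an inhibitor of vacuolar invertase with the fold of the pectinesterase inhibitors. Untreated arrays gave 12.95 and 12.23 in wild type, 12.60 and 12.07 on those labelled gem1, and 13.15 and 12.17 in GEMoe. With ABA the values were 14.37 and 14.50, 14.10 and 14.30, and 14.35 and 14.25. Every ABA-treated array stood above every untreated one. The difference was 1.78 (SE 0.20), or 3.44-fold, with an adjusted p of 0.0018. Its relative C/VIF2, which inhibits cell wall and vacuolar invertase, differed by -0.07 (SE 0.09, adjusted p = 0.845), with values from 14.69 to 15.15.

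AT1G23200, known as PME6 of guard cells and seed mucilage, rose by 1.62 (SE 0.23), or 3.07-fold, with an adjusted p of 0.00414. Untreated arrays gave 11.86 and 12.03 in wild type, 11.67 and 11.79 on those labelled gem1, and 11.55 and 13.00 in GEMoe. With ABA they gave 13.43 and 13.56, 13.50 and 13.72, and 13.60 and 13.81. The groups did not overlap, although untreated GEMoe replicate 2 lay 0.98 above the next untreated array. AT3G49220, known as PME34 of guard cells and heat tolerance, lay near the top of the scale and rose by 0.52 (SE 0.08), or 1.44-fold (adjusted p = 0.00513). Its untreated values ran from 14.96 to 15.32 and its ABA-treated values from 15.55 to 15.73. AT3G43270 rose 2.00-fold, by 1.00 (SE 0.12, adjusted p = 0.00234). In wild type it went from 14.29 and 13.83 to 14.88 and 14.79, on the arrays labelled gem1 from 14.002 and 13.51 to 14.97 and 15.05, and in GEMoe from 14.20 and 13.90 to 14.95 and 15.11. These 3 were the rising enzymes, and none of the untreated arrays reached the lowest ABA-treated one.

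**Figure D2:**
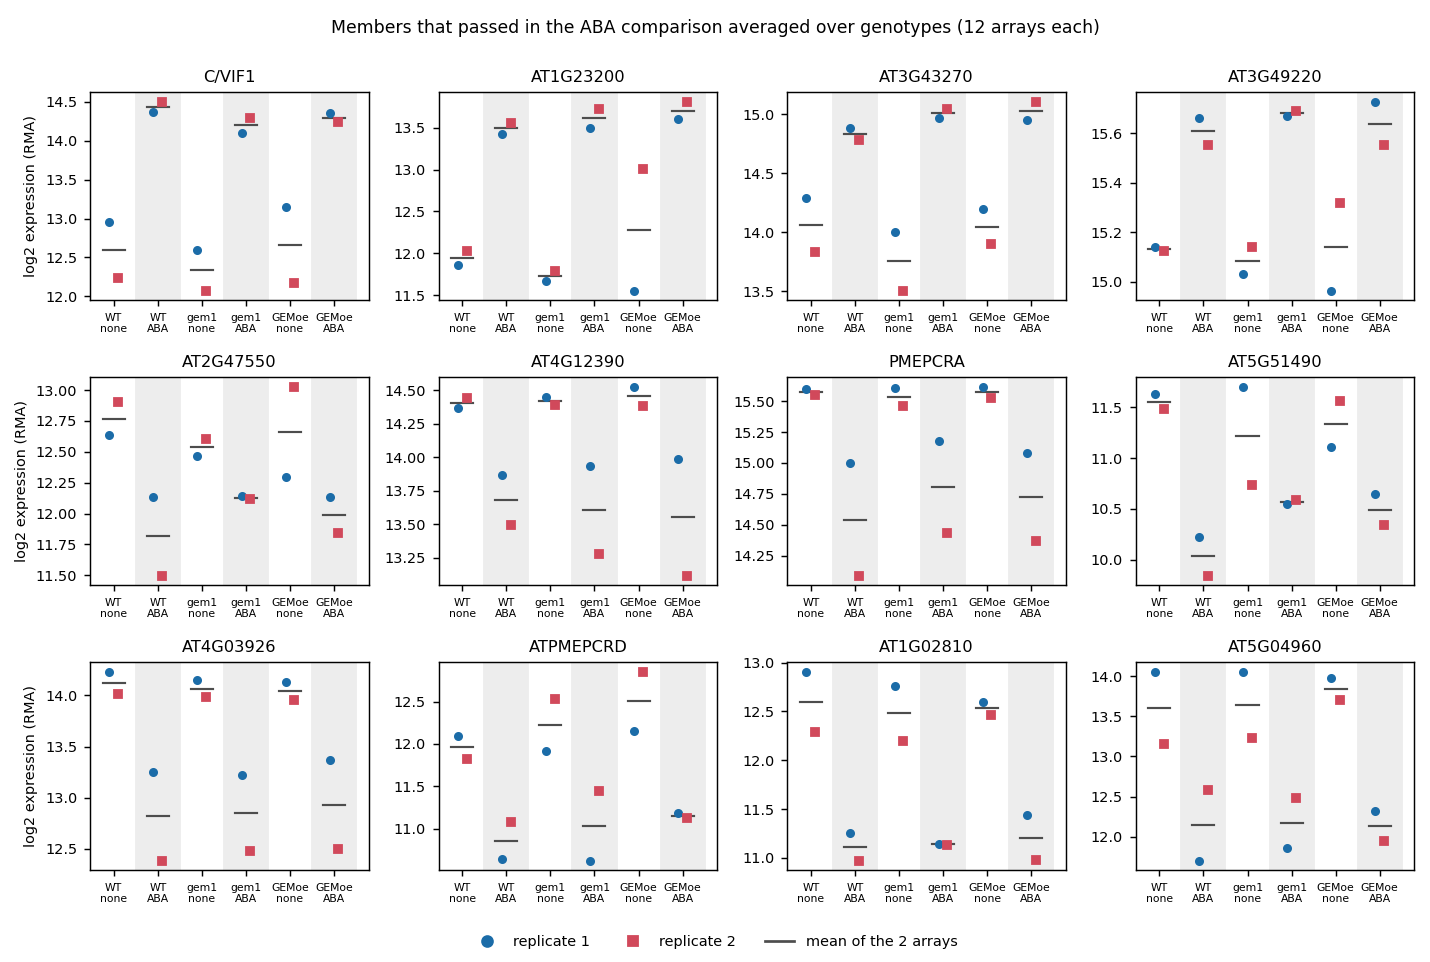
Log2 expression of the 12 members that passed in the averaged ABA comparison, on each of the 12 arrays (circles replicate 1, squares replicate 2, lines the mean of the 2 arrays, grey bands the ABA-treated groups, each panel with its own axis). In every panel the untreated and the ABA-treated arrays are apart, with C/VIF1, AT1G23200, AT3G43270 and AT3G49220 higher and the other 8 lower after ABA.

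Among the falling enzymes AT5G04960, known as PME46 and placed here with the root and root hair genes, changed most. Its untreated values were 14.05 and 13.15 in wild type, 14.05 and 13.23 on the arrays labelled gem1, and 13.98 and 13.70 in GEMoe. With ABA they were 11.70 and 12.59, 11.86 and 12.48, and 12.33 and 11.95. No ABA-treated array reached the lowest untreated one, and the difference was -1.54 (SE 0.25), or 2.91-fold lower (adjusted p = 0.00837). Its neighbour AT5G04970, which starts 176 base pairs away on chromosome 5, differed by -0.05 (SE 0.16, adjusted p = 1.00).

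AT1G02810 went from 12.91 and 12.29 to 11.26 and 10.97 in wild type, from 12.76 and 12.20 to 11.14 and 11.13 on the arrays labelled gem1, and from 12.60 and 12.47 to 11.44 and 10.97 in GEMoe. It fell by 1.38 (SE 0.15), or 2.61-fold, with an adjusted p of 0.00163, the lowest of the family in this comparison. ATPMEPCRD (AT2G43050) fell by 1.22 (SE 0.20, adjusted p = 0.00873), from 11.83 to 12.85 on the 6 untreated arrays to 10.62 to 11.44 on the 6 treated ones. AT5G51490 fell 2.01-fold, by 1.01 (SE 0.18, adjusted p = 0.0117), from 10.74 to 11.70 down to 9.84 to 10.64. Here the lowest untreated array, replicate 2 labelled gem1, was 0.10 above the highest treated one. Its neighbour AT5G51500, which starts 2323 base pairs away, had values of 11.19 to 12.12 untreated and 10.65 to 11.22 with ABA, which overlap, and missed the threshold (-0.73, SE 0.22, adjusted p = 0.0863; 0.00111 with the replicate block). The 2 genes are copies side by side, and probes may take signal from both.

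PMEPCRA (AT1G11580) fell by 0.87 (SE 0.21, adjusted p = 0.0372). All 6 untreated arrays lay between 15.46 and 15.61. With ABA the replicate 1 arrays gave 14.997, 15.17 and 15.08, and the replicate 2 arrays 14.09, 14.44 and 14.37. AT2G47550 fell by 0.68 (SE 0.16, adjusted p = 0.0368), from 12.30 to 13.03 down to 11.50 to 12.14. The call of PMEPCRA was lost without any 1 of 9 arrays, all but the ABA-treated replicate 1 arrays (adjusted p at most 0.0988). That of AT2G47550 was lost without any 1 of 10, all but ABA-treated wild-type replicate 1 and untreated GEMoe replicate 1 (at most 0.101). With the replicate block the values were 0.00435 and 0.0248, and 2 more enzymes passed besides AT5G51500: AT5G64640 (-0.53, SE 0.17, adjusted p = 0.111; 0.0100 with the block) and PME3 (-0.24, SE 0.08, adjusted p = 0.105; 0.0282 with the block). PME3 gave 15.69 to 15.75 on the untreated arrays and 15.32 to 15.65 on the treated ones, without overlap.

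Outside the enzymes, the inhibitor AT4G12390 fell by 0.81 (SE 0.18, adjusted p = 0.0259), from 14.37 to 14.52 down to 13.12 to 13.98. Its call was lost without any 1 of 8 arrays, all but the ABA-treated replicate 1 arrays and ABA-treated GEMoe replicate 2 (adjusted p at most 0.0808). The pseudogene AT4G03926, 285 base pairs long on chromosome 4 (1867902 to 1868186, forward strand), fell by 1.21 (SE 0.22, adjusted p = 0.0128), from 13.96 to 14.23 down to 12.39 to 13.37. AT4G03930, an enzyme gene 2236 base pairs away, differed by -0.19 (SE 0.12, adjusted p = 0.437), with values from 12.17 to 12.82. Of the 11 inhibitors, AT4G12390 was the member that passed, and the others differed by -0.24 to 0.24.

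Some members with large differences did not pass. AT2G26440, whose difference was the third largest fall of the family, gave 13.65 and 14.62 untreated and 12.91 and 11.95 with ABA in wild type. On the arrays labelled gem1 it gave 13.33 and 14.61, then 12.99 and 13.19, and in GEMoe 13.01 and 15.10, then 12.94 and 12.47. Its difference was -1.31 (SE 0.42, adjusted p = 0.102), and the replicates were far apart. With the replicate block its adjusted p was 0.0507, just over the threshold. RHS12, a root hair pectinesterase, differed by -0.69 (SE 0.32, adjusted p = 0.262), sks16 by -0.55 (SE 0.45, adjusted p = 0.627). On the rising side followed ATPMEPCRB, the PME41 of chilling responses, at 0.27 (SE 0.42, adjusted p = 0.913), AT2G45220, the PME17 of roots and defence, at 0.26 (SE 0.14, adjusted p = 0.339), and the inhibitor PMEI2 and the enzyme PE11, both at 0.24 (adjusted p = 0.543 and 0.456). PME5 differed by 0.11 (SE 0.09, adjusted p = 0.611), and PME31, a form without the pro region, by -0.13 (SE 0.12, adjusted p = 0.686). Without untreated GEMoe replicate 1 the value of ATPMEPCRB turned to -0.035, and without untreated GEMoe replicate 2 it was 0.58.

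Root markers moved with ABA too. Of 6 root genes 4 fell, SCR by 0.50, PHT1;1 by 0.57, COBL9 by 0.78 and CASP1 by 0.29 (adjusted p = 0.0189, 0.00529, 0.0124 and 0.0118), and NRT2.1 (-1.56) and EXPA7 (-0.40) did not pass (adjusted p = 0.181 and 0.154). The mean of the 6 ran from 14.17 to 14.58 untreated and from 13.59 to 13.87 with ABA. None of 5 leaf markers passed, but RBCS1A, LHCB1.3 and RCA lay at 15.78 to 15.91 on every array, near the top of the scale, where a change may not be seen. The other leaf markers, LHCB1.1 and LHCB2.1, differed by 0.09 (SE 0.33) and 0.02 (SE 0.15). In RNA of whole seedlings, fewer cells of a type and less RNA per cell cannot be told apart, and the part of root tissue in the falls of the members was not tested.

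Within single genotypes, with 2 arrays against 2, few members passed in the fit without the replicate block. In wild type AT1G02810 fell (-1.48, SE 0.27, adjusted p = 0.048), and no member rose. Over all loci 1.37% passed there, against 1.02% of the members. On the arrays labelled gem1 AT3G43270 rose (1.25, SE 0.21, adjusted p = 0.037), again 1.02% of the members, against 1.46% of all loci. In GEMoe none passed with limma, where 1.55% of all loci did. An unadjusted p under 0.05 was found there for 12 members (12.2%), near the 11.8% of all loci. The first call was lost without any 1 of 10 arrays, all but the untreated arrays labelled gem1 (adjusted p at most 0.321). The second was lost without any 1 of 9, all but the untreated wild-type arrays and untreated replicate 1 labelled gem1 (at most 0.268). With the replicate block 7 members passed in wild type (7.14%, all loci 6.02%), 8 on the arrays labelled gem1 (8.16%, all loci 5.55%) and 6 in GEMoe (6.12%, all loci 5.85%).

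The 12 members kept 1 sign in every genotype. C/VIF1 differed by 1.84, 1.86 and 1.64 in wild type, on the arrays labelled gem1 and in GEMoe, AT1G23200 by 1.55, 1.88 and 1.43, and AT5G04960 by -1.45, -1.47 and -1.70. AT5G51490 showed the widest spread of the falling ones, with -1.52, -0.65 and -0.84. The limma test of the difference in ABA response against wild type found no member for the arrays labelled gem1 and none for GEMoe. This was at an adjusted p under 0.05, where 0% of all loci passed. At an unadjusted p under 0.05 there were 0 and 0 members, against 0.638% and 0.549% of all loci. With the replicate block the unadjusted counts were 1 (1.02%, all loci 2.72%) and 4 (4.08%, all loci 2.03%), and the adjusted counts remained 0. Whether these shares differ from those of all loci was not tested.

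Between genotypes 1 member stood far from the rest, without passing the test. PME61 (AT3G59010, chromosome 3, 21802805 to 21805214, reverse strand), known as PME35 and for the pectin of stem fibres, was low on all 4 arrays labelled gem1. Untreated wild type gave 13.26 and 13.01, and ABA-treated wild type 13.31 and 12.90. The arrays labelled gem1 gave 11.58 and 11.38 untreated and 11.24 and 11.26 with ABA. GEMoe gave 12.87 and 12.14 untreated and 13.21 and 12.28 with ABA. Its replicate 1 arrays lay within or just under the wild-type range. Its replicate 2 arrays lay between wild type and the arrays labelled gem1. The highest array labelled gem1 stood 1.32 below the lowest wild-type array. Averaged over treatments the difference from wild type was -1.75 (SE 0.24), or 3.37-fold lower. The unadjusted p was 0.000103, and the adjusted p over all loci 1.00 (0.117 with the replicate block), so it did not pass. It was -1.66 untreated and -1.85 with ABA, and ran from -1.62 to -1.89 when any 1 array was left out, with or without the block.

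**Figure D3:**
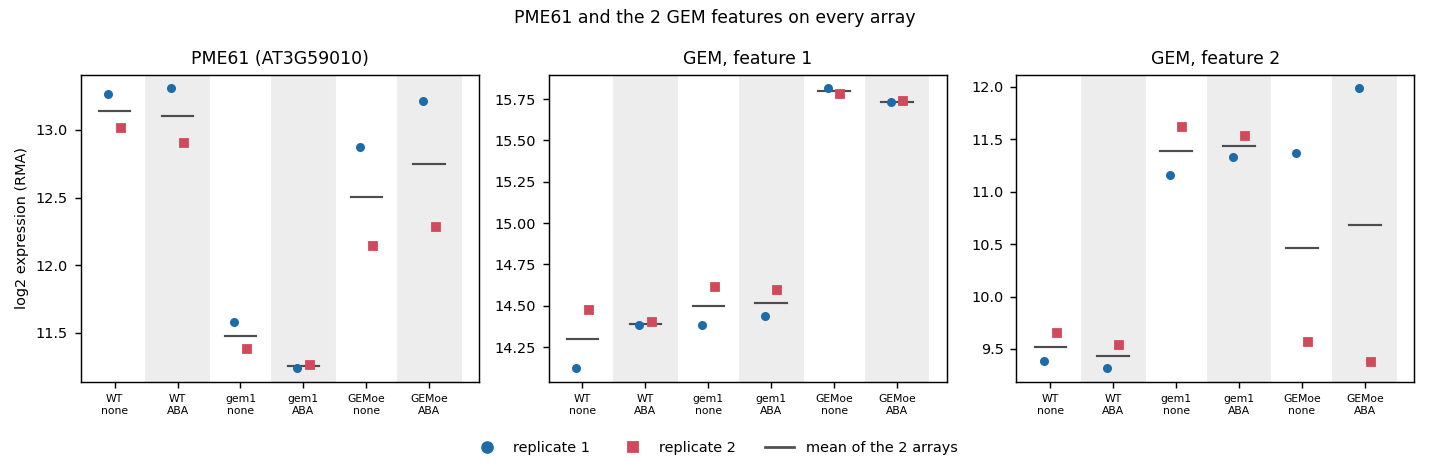
Log2 expression of PME61 and of the 2 features of GEM on each of the 12 arrays (circles replicate 1, squares replicate 2, lines the mean of the 2 arrays, grey bands the ABA-treated groups). PME61 lies at 11.24 to 11.58 on the arrays labelled gem1 and at 12.14 or above elsewhere, whereas neither GEM feature is lower on those arrays than in wild type.

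No other member came near. Averaged over treatments, 0 of 98 members passed for the arrays labelled gem1 against wild type (limma, adjusted p under 0.05), where 0% of all loci did. At an unadjusted p under 0.05 there were 2 members (2.04%) without and with the replicate block. The shares of all loci were 0.564% without the block and 2.2% with it. PME61 was the single member whose 4 arrays did not overlap those of wild type, and 0.257% of all loci lay lower without overlap. The second was AT5G19730, an enzyme, at 0.28 (SE 0.09, unadjusted p = 0.0178, adjusted p = 1.00), with 14.16 to 14.56 on the arrays labelled gem1 and 14.06 to 14.28 in wild type. Between GEMoe and wild type 0 members passed (limma, adjusted p under 0.05), where 0.00306% of all loci did. At an unadjusted p under 0.05 there were 0 members without the replicate block, against 0.567% of all loci. With the block there were 2 (2.04%, all loci 2.29%). PME61 differed there by -0.49 (SE 0.24, adjusted p = 1.00), -0.63 untreated and -0.36 with ABA. Both comparisons use the same wild-type arrays. Over the 98 members the difference from wild type ran from -1.75 to 0.35 for the arrays labelled gem1 and from -0.49 to 0.42 for GEMoe.

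The replicate number went with more differences in the family than ABA did, in the fit that has both. Replicate 2 was higher than replicate 1 for 32 members and lower for 17, together 50% of the 98, where 47.0% of all loci passed (26.1% higher and 21.0% lower). Without the dimmest 30% of loci the balance turned, to 8 higher and 12 lower. That filter takes out the dim members, and the shares of all remaining loci are not given here. The turn is therefore not read as a result about the family. The arrays of the 2 replicates did not overlap for 19 members (19.4%, all loci 22.4%). Across members and arrays, replicate number took 29.1% of the spread, treatment 42.2% and genotype 7.11%, and over all loci 39.2%, 38.5% and 3.56%. Ranked only against each other, replicate number took the largest share in 59 members, treatment in 28 and genotype in 11. The spread left over by these factors was not ranked, so a largest share can be small. Among the members counted for genotype, its share ran from 2% for PMEI1 to 87.4% for PME61. These counts are therefore not read as effects, and those of all loci are not given here. Replicate numbers carry no biological label, so what differed between the 2 sets is not known.

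ATPMEPCRB was higher in replicate 2 in each of the 6 groups, by 0.49 to 1.83, with a mean of 1.05 (SE 0.19, adjusted p = 0.00512). Its replicate 1 arrays gave 11.98 to 12.73 and its replicate 2 arrays 13.00 to 14.28. Next came AT5G61680 (0.79, SE 0.17), AT3G10720 (0.69, SE 0.08) and the inhibitor AT1G56100 (0.60, SE 0.10), each without overlap between the sets. VGDH1 (0.59), AT5G51500 (0.57), the short gene AT4G00872 (0.53) and sks18 (0.52) complete the 8 largest. Of the other pollen genes named above, VGDH2 (0.45), VGD1 (0.29), AT5G07410 (0.29) and AT5G07420 (0.31) also were higher in replicate 2, and QRT1 was lower (-0.68, adjusted p = 0.0153). PPME1 (0.23), AT5G07430 (0.03), PMEI1 (0.01) and PMEI2 (-0.28) did not pass. PME44 differed by only 0.35 (SE 0.04), but in all groups alike: 15.25 to 15.37 in replicate 1 and 15.59 to 15.70 in replicate 2.

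In the other direction sks16 was lower in replicate 2 by 0.31 to 2.27 (mean -1.08, SE 0.23, adjusted p = 0.0094). UNE11, annotated as an inhibitor and named for a mutant with unfertilised embryo sacs, gave 12.52 to 13.23 in replicate 1 and 11.88 to 12.34 in replicate 2 (-0.88, SE 0.12, adjusted p = 0.00306). AT5G20860 (-0.87), AT3G47400 (-0.85), AT3G05620 (-0.82), AT1G05310 (-0.71), QRT1 (-0.68) and AT4G03926 (-0.50) follow. PME31 was lower by 0.30 (SE 0.05), and PME61 by 0.41 (SE 0.13). Of the 32 members under 9, 12 were higher and 1 lower in replicate 2. Of the 26 between 12 and 15, 4 were higher and 7 lower. The shares of all loci at these levels are not given here, so the counts are not read as particular to the family.

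**Figure D4:**
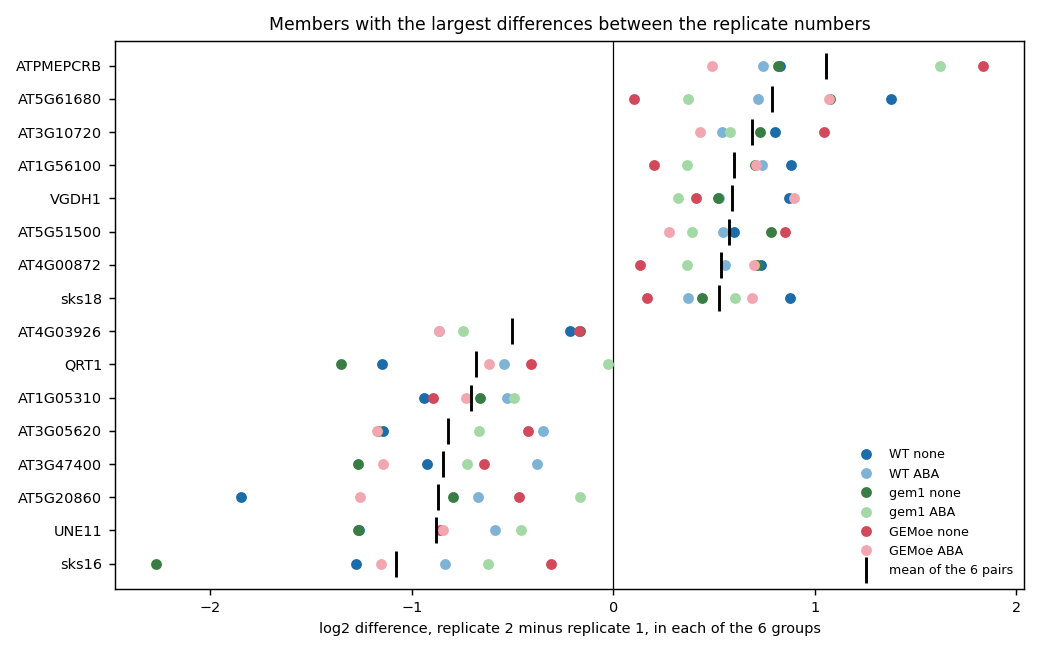
Log2 difference of replicate 2 minus replicate 1 in each of the 6 groups (coloured points) and their mean (black mark) for the 8 members with the largest positive and the 8 with the largest negative mean. For ATPMEPCRB the 6 points run from 0.49 to 1.83, and for sks16 from -2.27 to -0.31.

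Seed markers differed between the same sets: CRU3 was higher in replicate 2 by 3.11, OLEO1 by 1.59 and SESA3 by 0.94 (adjusted p = 0.00447, 0.0136 and 0.00415). The mean of these 3 ran from 9.57 to 10.58 in replicate 1 and from 10.84 to 13.64 in replicate 2. Of the 5 leaf markers LHCB1.1 and LHCB2.1 were higher in replicate 2 (0.85 and 0.38, adjusted p = 0.00326 and 0.00464), and the 3 near the top of the scale did not pass. Of 4 pollen markers HTR10 and DUO1 were higher (0.37 and 0.49, adjusted p = 0.0044 and 0.00975), and SPIK (0.19) and ACA9 (-0.08) did not pass. Of 6 root markers SCR was lower (-0.22, adjusted p = 0.0185). The other root markers did not pass and went both ways: NRT2.1 (0.95), EXPA7 (0.14), PHT1;1 (0.14), CASP1 (-8e-04) and COBL9 (-0.18). Of 3 flower markers AP3 was lower (-0.19, adjusted p = 0.0364), and PI (-0.12) and AG (-0.11) did not pass. The part of tissue or stage in the replicate differences of the members was not tested.

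The size of the ABA difference depended on the replicate set for 3 members (3.06%, all loci 2.34%), by a test added after the data had been seen that compares the ABA difference of replicate 2 with that of replicate 1 over the 3 genotypes. C/VIF1 rose by 1.38 in replicate 1 and 2.19 in replicate 2 (difference 0.81, SE 0.15, adjusted p = 0.0292). PMEPCRA differed by -0.52 and -1.21 (difference -0.69, SE 0.12, adjusted p = 0.0246), and AT4G03926 by -0.89 and -1.53 (difference -0.64, SE 0.09, adjusted p = 0.0126). The directions were the same in both sets. Leaving out 1 array gave 1 to 3 members, with 1 left without untreated wild-type replicate 2, any ABA-treated replicate 1 array or untreated replicate 1 labelled gem1. AT2G26440 had the widest gap, -0.39 against -2.24 (difference -1.85, SE 0.41, adjusted p = 0.0616), and AT5G04960 and RHS12 leaned the other way, with -2.06 against -1.02 and -1.15 against -0.24 (adjusted p = 0.177 and 0.607).

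**Figure D5:**
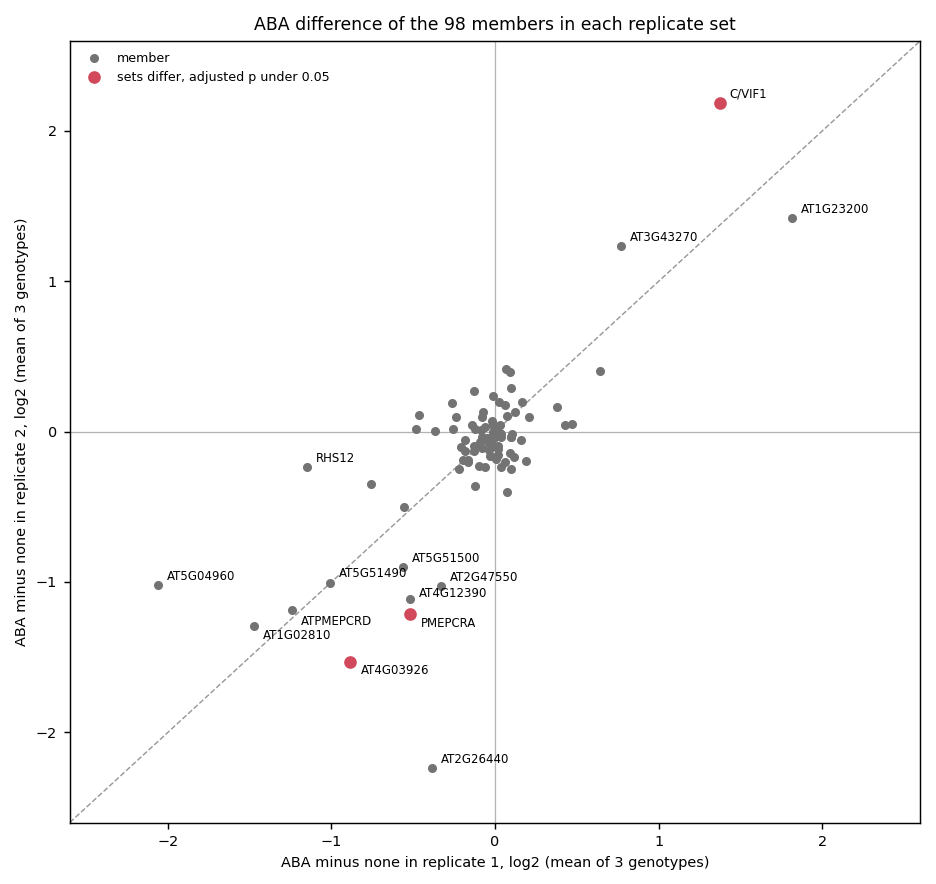
ABA minus untreated of each of the 98 members in replicate 1 (horizontal) and in replicate 2 (vertical), both on the log2 scale and averaged over the 3 genotypes, with a dashed line of equal values. Red points mark C/VIF1, PMEPCRA and AT4G03926, whose differences were 1.38 and 2.19, -0.52 and -1.21, and -0.89 and -1.53.

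Genes that build and sense homogalacturonan were taken from lists of known names. Of 19 synthesis genes (GAUT galacturonosyltransferases, the methyltransferases QUA2, QUA3, CGR2 and CGR3), 2 rose and 1 fell in the averaged comparison. These were GAUT6 (0.85, SE 0.06, adjusted p = 0.000295), GAUT15 (0.57, SE 0.11, adjusted p = 0.0183) and CGR3 (-0.23, SE 0.06, adjusted p = 0.0361), and the median of the 19 was -0.03. Of 10 genes of pectinesterase processing and pectin sensing (subtilases, wall-associated kinases, FER and THE1), 1 fell: WAK2, a kinase that binds pectin, by 1.17 (SE 0.23, adjusted p = 0.018). With the replicate block 1 rose and 3 fell, among them SBT3.5, a subtilase that processes PME17, at 0.62 (adjusted p = 0.12; 0.00645 with the block).

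Genes that cut pectin were taken by their annotation text. Over all loci 5.60% rose and 5.20% fell, and 9.27% and 12.9% with the replicate block. Of 79 loci with polygalacturonase in their text 2 rose and 9 fell, and 5 rose and 15 fell with the block. AT1G48100 rose by 2.61 (SE 0.34, adjusted p = 0.00303) and AT3G26610 fell by 2.80 (SE 0.19, adjusted p = 0.000202). The other riser, PGIP1 (0.72, SE 0.13, adjusted p = 0.0138), is an inhibitor of microbial polygalacturonases and not an enzyme. Of 26 pectate lyases 6 fell and none rose, with a median of -0.20, and 12 fell with the block. They included AT5G63180 (-1.32, SE 0.30, adjusted p = 0.0315), AT5G04310 (-1.06, SE 0.24, adjusted p = 0.0286) and the root hair gene RHS14 (-0.87, SE 0.15, adjusted p = 0.00954). Of 11 loci annotated as pectin acetylesterases, which remove acetyl groups, 1 rose and 2 fell.

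The array holds a further 54 loci annotated as invertase or pectin methylesterase inhibitors, whose text lacks the word pectinesterase. Of these 1 rose and 3 fell, and 3 rose and 7 fell with the replicate block. AT3G49330 rose by 1.57 (SE 0.37, adjusted p = 0.0352), AT5G62340 fell by 0.80 (SE 0.13, adjusted p = 0.00797), AT3G47380 fell by 0.67 (SE 0.13, adjusted p = 0.0176) and AT4G25260 fell by 0.43 (SE 0.09, adjusted p = 0.025). The median of the 54 was -0.03, close to that of all loci.

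Many members lie next to each other. Within 5000 base pairs there were 18 pairs of neighbouring members, made of 35 loci. In 3 of these pairs 1 gene passed in the averaged ABA comparison and the other did not: AT5G04960 with AT5G04970, AT5G51490 with AT5G51500, and AT4G03926 with AT4G03930. In no pair did both pass. These counts are from the fit without the replicate block. With the block AT5G51490 and AT5G51500 both passed, and both fell. PME3 and AT5G64640 then passed beside the neighbours ATPMEPCRC and C/VIF2, which did not. How often other neighbouring loci of the array pass together is not given here. RHS12 (-0.69) and AT3G10720 (-0.08), 245 base pairs apart, PME44 and AT4G33230 (0.01 and -0.03) and PME2 and AT1G53840 (-0.04 and -0.08) are further pairs, and none of these 6 passed. How far neighbouring copies share probe signal is not known, so values of such pairs are uncertain. For the 3 members with 2 features, the ABA differences were 0.13 and -0.01 for AT1G56100, -0.20 and -0.08 for AT3G10720, and 0.09 and -0.03 for AT4G03945. Each lay within 2 SE of 0, so these members cannot show whether features of a locus agree on an ABA response.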

How the data were processed

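Total RNA of whole seedlings was hybridised to 12 one-colour Cy3 arrays, 1 per sample. The deposited values are on the log2 scale. Per the submitters' processing notes the authors used RMA, with no version named. The files hold 37118 features of 32627 loci, and the feature with the highest mean over the 12 arrays stood for each locus. The table of probe numbers and the annotation came from the deposited files, per the file headers. RMA makes the arrays' distributions alike, so a change in total RNA would not be seen. Values near the top of the scale may be compressed, which was not tested. The files used here carried no background flags; precision is limited by how many arrays there are (median SE of an ABA difference 0.21 within a genotype and 0.12 averaged over genotypes).

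The 6 group means were fitted with limma 3.58.1 in R 4.3.3 over all 32627 loci and 12 arrays, with Benjamini-Hochberg adjustment over all loci and a threshold of 0.05. No filter and no pseudocount was applied. SEs come from the pooled spread with 6 residual degrees of freedom. Same-numbered replicates deviated together in all 15 pairs of groups (r = 0.44 to 0.88, median 0.71, over all loci), so the replicate numbers pair the samples by the rule used here. A second fit took replicate as a block, which left 5 residual degrees of freedom, and the replicate difference comes from it. Calls and SEs for ABA and genotype are from the first fit unless the block is named. That fit leaves the pairing out, so its SEs include the replicate difference. The fit was tested on simulated data, but the outcome is not given here and no support is drawn from it. The members and lists were chosen with earlier results of these data known. Named members are those past the threshold in any comparison, the 8 largest rises and falls with ABA and replicate, the 5 highest and lowest means, and the role lists. Of the 49 that passed for replicate number, those outside these lists are given as counts. Tests of protein motifs and promoter sequences were planned and are not analysed here. Figures were drawn with matplotlib 3.10.9.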

Additional observations from a re-analysis of the deposited data

How the results depend on the processing

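The averaged ABA count of 12 members stayed within 1.5 times under every alternative run: 15 with the replicate block, 13 with a variance trend, 9 to 12 with 1 array left out and 13 to 16 with 1 array left out and the block kept. The counts within a genotype, which rest on 2 arrays against 2, did not. With the replicate block they were 7 in wild type, 8 for gem1 and 6 for GEMoe. With only the groups of the contrast fitted, both wild type and gem1 had 0. A variance trend gave 3 for gem1, 1 for GEMoe and 6 for the difference in ABA response between replicate sets. Leaving out the dimmest 30% of loci gave 2 in wild type, 3 for gem1 and 20 for the replicate difference, where 8 higher and 12 lower stood against 32 and 17 without that filter. Repeating quantile normalization gave 2 for gem1, and taking the feature with the lowest mean gave 0 in wild type. With 1 array left out the counts ran from 0 to 2 in wild type, 0 to 2 for gem1, 0 to 1 for GEMoe, 31 to 50 for the replicate difference (31 without either untreated wild-type array) and 1 to 3 for the difference between replicate sets. With the block kept they ran from 1 to 9 in wild type (4 without either ABA-treated array labelled gem1), 1 to 7 for gem1 and 0 to 5 for GEMoe (0 without ABA-treated replicate 2 of GEMoe, 4 without any 1 array labelled gem1 or ABA-treated wild-type array). The replicate block changed no other count of calls by over 1.5 times and no other call averaged over genotypes than those given above. Both genotype comparisons and both differences in ABA response had 0 members throughout these alternatives. The single reversal was ATPMEPCRB, whose ABA difference, which did not pass, was -0.035 without untreated GEMoe replicate 1 and 0.5766 without untreated GEMoe replicate 2. Among the named members' values, 1670 kept their side of the threshold, 203 newly passed, 261 no longer passed and 1 reversed. Taking the values from the table of the whole series left every count as it was. The cause of these shifts was not tested.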

Other observations

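Replicate differences in other families that act on pectin are read against all loci, of which 26.1% were higher and 21.0% lower in replicate 2. Of 79 loci annotated with polygalacturonase, 26 were higher and 20 lower in replicate 2 (limma with the replicate block, adjusted over all loci), with differences from -1.81 to 1.51 on the log2 scale. Of 26 pectate lyases 5 were higher and 8 lower, from -1.16 to 0.71. Of 11 loci annotated as pectin acetylesterases 2 were higher and 3 lower, from -0.56 to 0.25. Of the 54 further inhibitors 13 were higher and 11 lower, from -1.83 to 0.80. Of 19 genes that build homogalacturonan 1 was higher and 1 lower, and of 10 genes of processing and sensing 1 was higher and 3 lower. Whether these shares differ between the lists was not tested. None of the genes on these 6 lists passed for the arrays labelled gem1, or for GEMoe, against wild type, with or without the block (limma).

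Among the further inhibitors AT3G17130 and AT2G01610 were the lowest in replicate 2, by -1.83 (SE 0.19, adjusted p = 0.00152) and -1.76 (SE 0.15, adjusted p = 0.00101), in all 6 groups. Both passed for ABA in the block fit alone. AT3G17130 gave 1.47 with ABA (adjusted p = 0.27 without the block and 0.00169 with it), and AT2G01610 gave -0.79 (adjusted p = 0.634 and 0.0103).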
